A study of Mus musculus with 9 samples.

Results

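The genes described here encode splicing factors and other nuclear RNA-binding proteins. They were chosen by symbol alone: every gene whose symbol starts with Srsf, Hnrnp, Sf3a, Sf3b, Snrp, Prpf, U2af, Celf, Mbnl or Rbm followed by a digit, and Qk. This gave 108 of the 11315 genes measured. Of these, 29 were kept apart because over 5% of the 50-base windows of their transcript also occur in a transcript of another locus. Reads from copies can then be counted for the gene or lost from it. The other 79 are called genes with their own sequence, although 26 of them share up to 5% of their windows.

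The study compared RNA from mouse brain cells sorted by a fluorescent reporter, and its title concerns an oligodendrocyte population that expresses NDRG1. There were 3 groups of 3 libraries. NDRG1-eGFP cells are labelled as myelinating oligodendrocytes, PLP-GFP cells as pre-myelinating oligodendrocytes and PDGFRa-GFP cells as oligodendrocyte progenitors. All mice were C57BL/6 at postnatal day 60, and every group carried a green fluorescent reporter. The receptor gene Pdgfra, after which 1 of the reporters is named, is also active in fibroblast-like cells around vessels. Whether a replicate is a separate animal, or how many animals were pooled, is not in the labels, so the p-values rest on a spread among libraries that may be technical. In such bulk samples, fewer cells of a type and less RNA per cell cannot be told apart.

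Splicing removes introns from a pre-mRNA. The U2AF proteins read the 3′ end of the intron, the U2 particle with its SF3a and SF3b subunits binds the branch point, and the Prpf proteins belong largely to the later U4/U6-U5 particle and the catalytic machinery, while Snrp genes encode the Sm ring and other particle proteins. SR proteins mostly promote the use of an exon and hnRNPs often oppose it. In oligodendrocytes, Qk is required for myelin formation and hnRNP A2 carries Mbp mRNA along the processes.

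Each library gave a normalized log2 value per gene, with a median of 10.57 in every library, and raw counts were not used, so depth is unknown. Levels are therefore compared between libraries for 1 gene and not between genes. The 12 myelin genes measured took between 11.97% and 12.45% of the summed linear values in NDRG1-eGFP libraries, between 11.0% and 11.2% in PLP-GFP libraries and between 9.93% and 11.5% in PDGFRa-GFP libraries. The 9 progenitor markers took between 0.00316% and 0.00500% in NDRG1-eGFP libraries and between 0.00367% and 0.00599% in PLP-GFP libraries, and 0.00796%, 0.0165% and 0.00354% in PDGFRa-GFP replicates 1, 2 and 3. The PDGFRa-GFP libraries, labelled as progenitors, thus carried myelin RNA at a level close to that of the others. Their summed progenitor markers were above the other groups in replicates 1 and 2 but not in replicate 3. Such a sum weighs genes with high values most, among them Gpr17, at 11.44, 12.64 and 8.20 in PDGFRa-GFP replicates 1, 2 and 3. Matn4 had 7.97, 8.63 and 8.14 there and 8.49, 8.84 and 9.54 in PLP-GFP libraries. Of the 9 markers, 1 was called lower in PLP-GFP and 2 in NDRG1-eGFP cells than in PDGFRa-GFP cells. The 1 called in PLP-GFP cells was Pdgfra, which is also counted among the fibroblast-like markers used below. Pdgfra itself had 5.85, 4.98 and 6.26 in NDRG1-eGFP libraries, 1.52, 4.98 and 1.63 in PLP-GFP libraries and 6.87, 7.54 and 5.47 in PDGFRa-GFP libraries. PDGFRa-GFP replicate 3 stood apart from replicates 1 and 2: over all genes, 7.49% were more than 1 log2 unit below both of them and 4.83% more than 1 above. Counts that rest on this group are given with and without it. Of the members called in a comparison with PDGFRa-GFP cells, all 11 in PLP-GFP against PDGFRa-GFP and all 33 in NDRG1-eGFP against PDGFRa-GFP were still called without it, and no fold change of theirs moved by more than 0.40 on the log2 scale, the size for Rbm45.

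NDRG1-eGFP cells differed from PLP-GFP cells in 45 of the 108 genes, called at an adjusted p under 0.05 in limma with Benjamini-Hochberg adjustment over all genes. Of these, 19 were higher and 26 lower in NDRG1-eGFP cells (17.6% and 24.1%), beside 26.1% of all genes called higher and 22.2% called lower. The genes with their own sequence gave 19 higher and 14 lower of 79 (24.1% and 17.7%), where 27.8% and 19.6% of all genes of that kind were called, and their median log2 fold change was 0.20, beside 0.13. The genes kept apart gave 0 higher and 12 lower of 29 (41.4%), where 10.4% and 45.7% of all genes with shared sequence were called, and their median was -0.49, beside -0.47. At an unadjusted limma p under 0.05, 2 of the 29 were higher. The shares called lower are thus near those of other genes of the same kind. Libraries of the 2 groups did not overlap for 37 of the 108 on the higher side and 33 on the lower side, beside 36.6% and 29.8% of all genes. Over all genes these shares were 21% and 14.3% in NDRG1-eGFP against PDGFRa-GFP. In PLP-GFP against PDGFRa-GFP they were 22.3% and 20%. A lack of overlap is thus common in the whole table. With each library recentred on the median ratio to the mean library, 14 of the 108 were higher and 30 lower. The shares of all genes called in that fit are not given, so these 2 counts cannot be set against the shares above. The lowest of the called genes relative to PLP-GFP cells included hnRNP and U2AF genes that have copies elsewhere in the genome. Among genes with their own sequence, the SF3b subunit gene Sf3b5 and Rbm42 were on the higher side and Rbm15b, Prpf19 and Mbnl1 on the lower side.

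**Figure D1:**
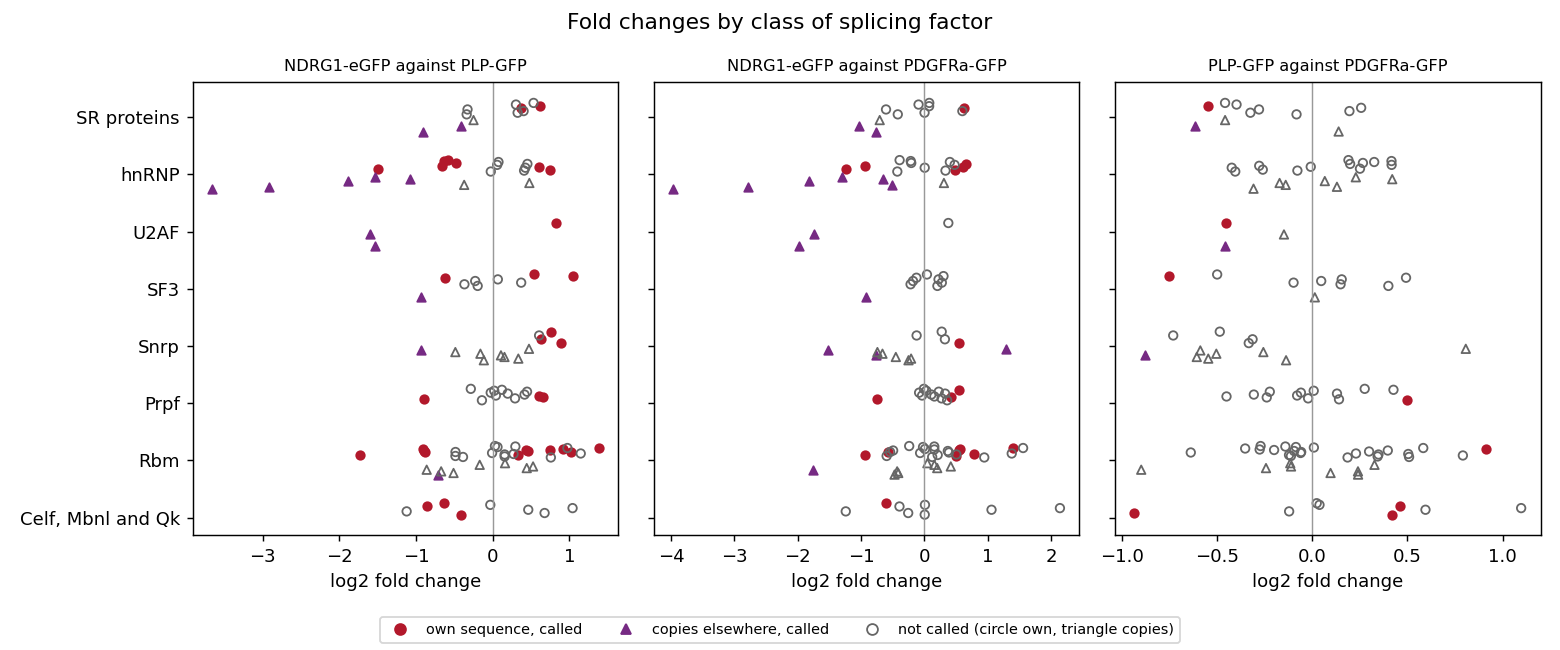
Log2 fold change (horizontal axis) of the 108 genes by class, in 3 comparisons that share libraries; circles are genes with their own sequence, triangles genes with copies elsewhere, and filled marks passed an adjusted p under 0.05. The 12 filled triangles of NDRG1-eGFP against PLP-GFP all lie below 0, and the filled circles lie on both sides. Horizontal ranges differ between panels.

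The sequences that the copies share are shown for the 6 genes described next, since they are what sets these genes apart. Each is a 60-base stretch of the gene's representative GENCODE M21 transcript, read 5′ to 3′ on the gene's own strand of GRCm38. Capitals mark bases that lie in a 50-base window also found in a transcript of another locus, and such a window may begin or end outside the stretch. The number of other loci is that of the 1 window inside the stretch that is found in the most loci. The Hnrnpa1 stretch is chr15:103241978-103242037 on the plus strand in exon 4 of 11, with windows in 8 other loci, all 8 pseudogenes. The Hnrnpa3 stretch is chr2:75661495-75661554 on the plus strand in exon 2 of 11, with 21 other loci of which 14 are pseudogenes. The Hnrnpf stretch is chr6:117924549-117924608 on the plus strand in exon 3 of 3, with 6 other loci, all 6 pseudogenes. The Hnrnpk stretch is chr13:58394616-58394675 on the minus strand in exon 10 of 16, with 59 of its 60 bases in shared windows and 1 other locus, a pseudogene. The U2af1 stretch is chr17:31654991-31655050 on the minus strand in exon 2 of 8, again with 59 bases in shared windows and 1 other locus, a pseudogene. The U2af2 stretch is chr7:5070388-5070447 on the plus strand in exon 7 of 12, with 59 bases in shared windows and 2 other loci, both pseudogenes.
Hnrnpa1: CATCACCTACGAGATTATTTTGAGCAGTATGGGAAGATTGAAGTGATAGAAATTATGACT
Hnrnpa3: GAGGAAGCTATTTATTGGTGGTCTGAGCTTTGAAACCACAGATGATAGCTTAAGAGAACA
Hnrnpf: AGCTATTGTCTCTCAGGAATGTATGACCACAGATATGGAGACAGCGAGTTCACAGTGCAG
Hnrnpk: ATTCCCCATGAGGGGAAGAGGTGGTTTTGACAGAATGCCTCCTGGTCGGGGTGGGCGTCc
U2af1: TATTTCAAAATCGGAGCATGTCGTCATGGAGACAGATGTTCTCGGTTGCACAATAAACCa
U2af2: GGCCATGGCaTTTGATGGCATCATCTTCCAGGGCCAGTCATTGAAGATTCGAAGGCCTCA

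Hnrnpa1, which encodes a repressor of exon use, had values of 7.37, 7.62 and 7.38 in NDRG1-eGFP libraries, 11.38, 10.95 and 11.01 in PLP-GFP libraries and 11.28, 11.58 and 11.41 in PDGFRa-GFP libraries. The NDRG1-eGFP libraries lay far below the others, which overlapped each other. The log2 fold change was -3.66 ± 0.17 (SE of the fit, n = 3 libraries per group; limma adjusted p = 4.57e-07) against PLP-GFP cells and -3.97 ± 0.17 (limma adjusted p = 1.91e-07) against PDGFRa-GFP cells. Windows shared with other loci made up 46.4% of its transcript. Hnrnpa3, with 90.5% of windows shared, had 8.32, 8.99 and 8.40 in NDRG1-eGFP libraries, 11.68, 11.40 and 11.36 in PLP-GFP libraries and 11.31, 11.46 and 11.28 in PDGFRa-GFP libraries. The pattern across groups was the same, with a log2 fold change of -2.91 ± 0.19 (limma adjusted p = 3.48e-06) against PLP-GFP cells.

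Hnrnpf, whose product binds runs of G, had 49.0% of windows shared. Its values were 10.57, 10.64 and 10.33 in NDRG1-eGFP libraries, 12.42, 12.45 and 12.35 in PLP-GFP libraries and 12.23, 12.13 and 12.66 in PDGFRa-GFP libraries. The NDRG1-eGFP group did not overlap either of the others, and the log2 fold change was -1.89 ± 0.16 (limma adjusted p = 1.61e-05) against PLP-GFP cells. Hnrnpk, with 38.3% shared, encodes a protein that binds C-rich RNA and had 13.34, 13.53 and 13.19 in NDRG1-eGFP libraries, 14.96, 14.86 and 14.84 in PLP-GFP libraries and 14.66, 14.63 and 14.68 in PDGFRa-GFP libraries. Here the log2 fold change was -1.54 ± 0.11 (limma adjusted p = 7.49e-06) against PLP-GFP cells and -1.31 ± 0.11 (limma adjusted p = 2.63e-05) against PDGFRa-GFP cells. Hnrnph2, the X-linked relative of Hnrnpf with 18.2% shared, was lower by a log2 fold change of -1.08 ± 0.18 (limma adjusted p = 0.00108) against PLP-GFP cells. Hnrnpc and Hnrnpdl, the other hnRNP genes kept apart, were not called in this comparison, with log2 fold changes of -0.37 and 0.48.

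U2af1 and U2af2 encode the small and large subunits of U2AF, which recognise the AG and the pyrimidine tract before an exon. U2af1, with 59.4% of windows shared, had 10.32, 10.48 and 10.39 in NDRG1-eGFP libraries, 12.005, 11.878 and 11.895 in PLP-GFP libraries and 12.24, 12.40 and 12.51 in PDGFRa-GFP libraries. The 3 groups did not overlap, and the log2 fold change was -1.53 ± 0.12 (limma adjusted p = 1.29e-05) against PLP-GFP cells. U2af2, with 29.0% shared, had 10.00, 9.76 and 9.89 in NDRG1-eGFP libraries, 11.52, 11.35 and 11.57 in PLP-GFP libraries and 11.54, 11.69 and 11.65 in PDGFRa-GFP libraries. Only the NDRG1-eGFP group stood clear of both others, at -1.59 ± 0.13 (limma adjusted p = 1.51e-05) against PLP-GFP cells. U2af1l4 encodes a paralogue of the small subunit and shares no window with another locus. It had 11.94, 12.08 and 11.97 in NDRG1-eGFP libraries, 11.26, 11.07 and 11.16 in PLP-GFP libraries and 11.52, 11.73 and 11.60 in PDGFRa-GFP libraries. It was higher in NDRG1-eGFP cells than in PLP-GFP cells (0.83 ± 0.12, limma adjusted p = 0.000499), the reverse of U2af1, but 97.4% of its exon bases are also annotated to another gene and its fold change was 0.08 once the trend on transcript length was removed. Reads of overlapping genes cannot be told apart here, since the strand used in counting is not given in the sources used here.

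**Figure D2:**
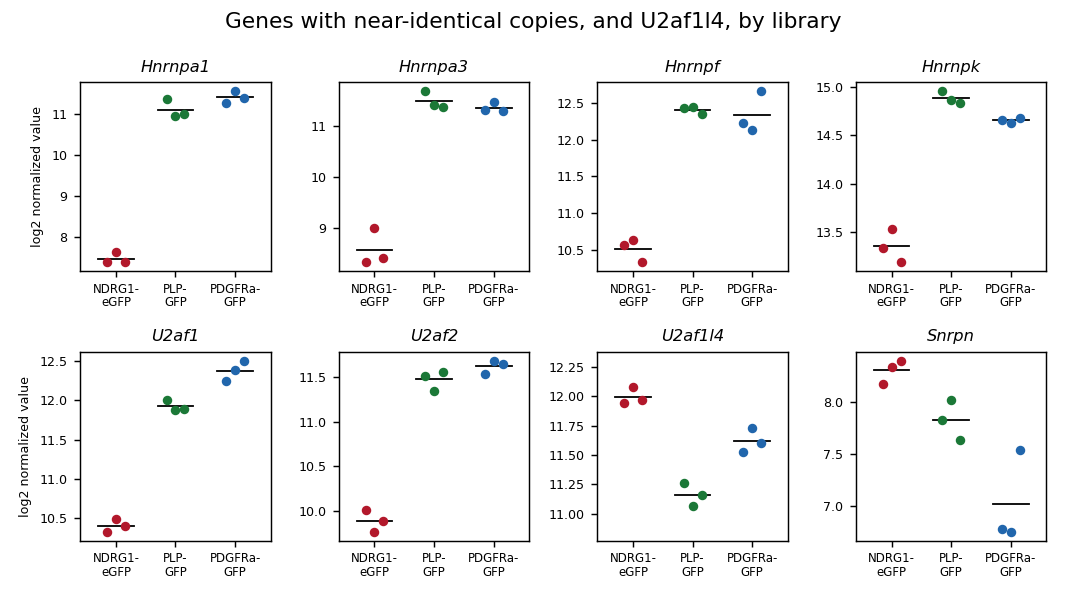
Log2 normalized value (vertical axis, range differing between panels) of 7 genes with copies elsewhere and of U2af1l4 in each library, with a bar at the group mean (n = 3). The NDRG1-eGFP points of Hnrnpa1, at 7.37 to 7.62, lie below all PLP-GFP and PDGFRa-GFP points, and those of U2af1l4 lie above.

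The other genes kept apart moved less. Sf3b4, for an SF3b subunit, was lower in NDRG1-eGFP cells than in PLP-GFP cells (-0.94 ± 0.19, limma adjusted p = 0.00265, 49.3% shared), as were Snrpg for an Sm ring protein (-0.93 ± 0.19, limma adjusted p = 0.00294, 18.1% shared) and Srsf10 for an SR protein (-0.90 ± 0.15, limma adjusted p = 0.0011, 10.0% shared). Srsf3 fell by 0.41 ± 0.12 on the log2 scale (limma adjusted p = 0.0172), and 4 of the 6 fits without 1 library lost its call. Rbm10 fell by 0.71 ± 0.27 (limma adjusted p = 0.0481), and its call was lost in all 6 such fits. The remaining 17 genes kept apart were not called. They included both Rbm12b copies, for which over 50% of windows were shared and the log2 fold changes were -0.51 and -0.67.

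Lower values went with more shared sequence across the whole table and not only among splicing factors. In NDRG1-eGFP against PLP-GFP, the median log2 fold change of the 108 genes was 0.16 for the 53 with no shared window, 0.34 for the 26 with up to 5%, -0.03 for the 12 with 5% to 20%, -0.25 for the 9 with 20% to 40% and -1.23 for the 8 with over 40%. Over all genes the medians in the same bins were 0.16, 0.02, -0.08, -0.53 and -1.58, and the shares called lower were 18.9%, 22.8%, 30.8%, 48.2% and 75.2%. The part of shared sequence in the values of any 1 gene was not tested. Next to the 5% limit, Snrpn was inside at 5.03% and Rbm7 outside at 4.47%, with log2 fold changes of 0.47 and 0.03.

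**Figure D3:**
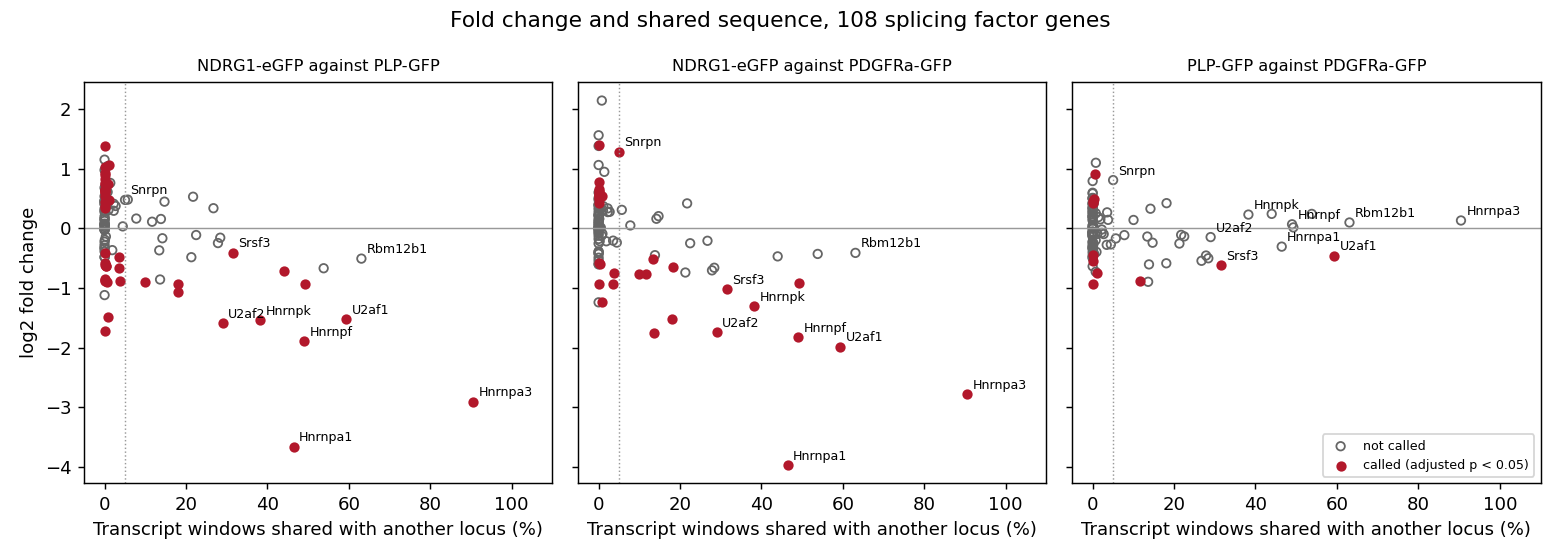
Log2 fold change (vertical axis) of the 108 genes against the percentage of 50-base transcript windows shared with another locus (horizontal axis); filled points passed an adjusted p under 0.05, and the dotted line marks 5%. In both comparisons with NDRG1-eGFP on top, the points right of the line spread downward to Hnrnpa1 at -3.66 and -3.97, while in PLP-GFP against PDGFRa-GFP they stay between -0.90 and 0.81.

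Among the 79 genes with their own sequence, the calls of NDRG1-eGFP against PLP-GFP ran from -1.73 to 1.38 on the log2 scale. Short transcripts were mostly on the higher side. The 27 genes with the shortest transcripts, 884 to 2678 bases, gave 11 higher and 1 lower, and the 26 with the longest, 4010 to 21452 bases, gave 2 higher and 10 lower. Spearman's rho of the fold change with transcript length was -0.47 over these 79 genes and -0.50 over 11272 genes of the table, which share libraries and are not independent. With each library's trend on length removed, rho over the 79 was 0.24, 9 of the 19 higher calls and 6 of the 14 lower calls were kept, and values with the trend removed are given below beside fold changes whose call was lost. Against a background of 15.4% and 12.5% of genes with their own sequence, 13 and 9 of the 79 were then called higher and lower. That fit also called higher 4 genes that had not been called before, among them Hnrnpu (0.71), Prpf4 (0.65) and Hnrnpm (0.62). It added lower calls too, since only 6 of its 9 had been called lower before.

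**Figure D4:**
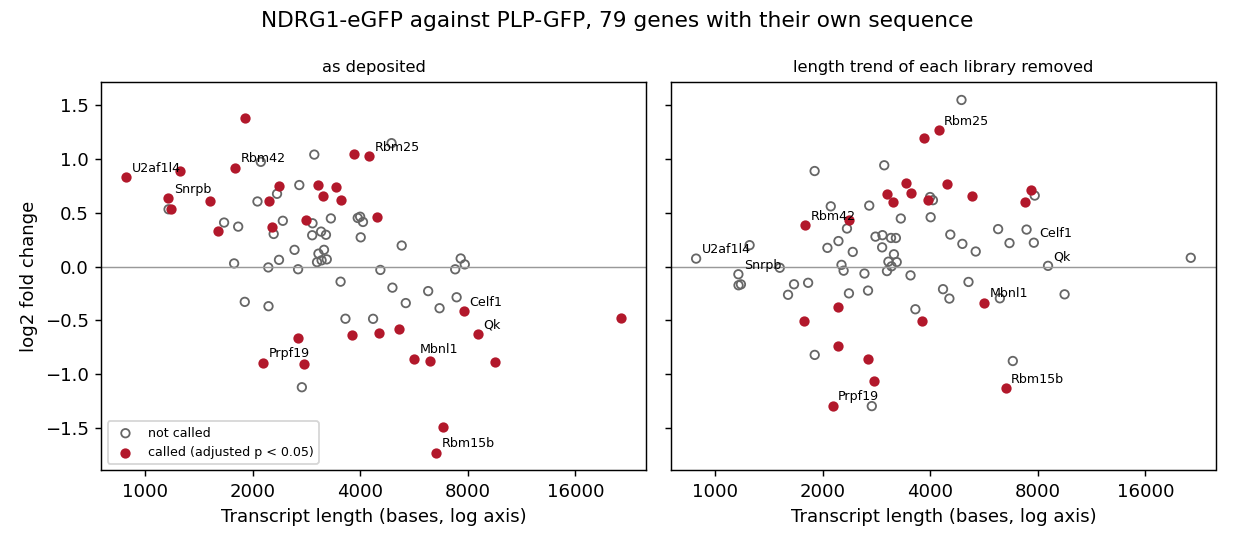
Log2 fold change of NDRG1-eGFP against PLP-GFP (vertical axis) against transcript length in bases (horizontal log axis) for the 79 genes with their own sequence, as deposited (left) and with the length trend of each library removed (right); filled points passed an adjusted p under 0.05. On the left the points slope downward from U2af1l4 at 0.83, and on the right U2af1l4, Snrpb, Celf1 and Qk lie between -0.07 and 0.22 while Rbm25 and Prpf19 stay far from 0.

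Of the 8 SF3 genes with their own sequence, 2 were higher and 1 lower. Beside this count and those of the classes below, 27.8% of all genes with their own sequence were called higher and 19.6% lower. The classes are small and were not tested as sets. Sf3b5, for a small subunit of SF3b, had 12.03, 11.74 and 11.75 in NDRG1-eGFP libraries, 11.00, 10.66 and 10.69 in PLP-GFP libraries and 11.18, 11.48 and 11.97 in PDGFRa-GFP libraries. All NDRG1-eGFP libraries lay above all PLP-GFP libraries and overlapped the PDGFRa-GFP ones, and the log2 fold change against PLP-GFP cells was 1.05 ± 0.20 (limma adjusted p = 0.00198). Sf3b6, which contacts the branch-point adenosine, was higher by 0.54 ± 0.20 (limma adjusted p = 0.0499), but its call was lost in all 6 fits without 1 library and its value was -0.16 with the length trend removed. Sf3b3, a scaffold of SF3b, was lower by a log2 fold change of -0.62 ± 0.16 (limma adjusted p = 0.0097; -0.30 with the length trend removed). Sf3b1, which grips the branch helix, was not called, at -0.23 ± 0.19.

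Among the 4 Snrp genes with their own sequence, 3 were higher, and 1 with the length trend removed. Snrpd3 encodes an Sm ring protein and had 12.82, 12.90 and 12.46 in NDRG1-eGFP libraries, 12.17, 11.79 and 11.95 in PLP-GFP libraries and 12.30, 12.58 and 12.49 in PDGFRa-GFP libraries. The NDRG1-eGFP and PLP-GFP libraries did not overlap (0.76 ± 0.16, limma adjusted p = 0.00298), and 7.64% of its exon bases overlap another measured gene, Gucd1. Snrpa1, for a U2 particle protein, was higher by 0.89 ± 0.16 (limma adjusted p = 0.00134) and was at 0.20 with the length trend removed. Of its exon bases, 11.9% are also annotated to another gene. Snrpb, for another Sm protein, was higher by 0.64 ± 0.13 (limma adjusted p = 0.00265; -0.07 with the length trend removed).

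The 13 Prpf genes all had their own sequence, and 2 were higher and 1 lower. Prpf31, which holds the U4/U6-U5 particle together, had 12.06, 12.17 and 11.96 in NDRG1-eGFP libraries, 11.54, 11.34 and 11.35 in PLP-GFP libraries and 11.65, 11.76 and 11.53 in PDGFRa-GFP libraries. NDRG1-eGFP libraries were above all others, with 0.65 ± 0.13 (limma adjusted p = 0.00218) against PLP-GFP cells, though 11.2% of its exon bases are also annotated to another gene. Prpf19, a ubiquitin ligase that is the core of its own spliceosomal complex, went the other way, with 12.18, 12.27 and 12.25 in NDRG1-eGFP libraries, 13.26, 13.09 and 13.04 in PLP-GFP libraries and 13.03, 13.14 and 12.79 in PDGFRa-GFP libraries. NDRG1-eGFP libraries were below all others, at -0.89 ± 0.13 (limma adjusted p = 0.000412) against PLP-GFP cells and -1.29 with the length trend removed, and 3.79% of its windows are shared. Prpf38a, which joins the spliceosome before activation, was higher by 0.61 ± 0.16 (limma adjusted p = 0.0094; -0.01 with the length trend removed). Prpf8, the scaffold of the catalytic centre, was not called, at -0.28 ± 0.16.

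Of the 8 SR protein genes with their own sequence, Srsf6 and Srsf4 were called, both higher. Srsf6 had 12.79, 12.54 and 12.93 in NDRG1-eGFP libraries, 12.19, 12.08 and 12.12 in PLP-GFP libraries and 12.71, 12.97 and 12.35 in PDGFRa-GFP libraries. The NDRG1-eGFP libraries stood above PLP-GFP and overlapped PDGFRa-GFP, and the log2 fold change against PLP-GFP cells was 0.62 ± 0.17 (limma adjusted p = 0.011). Srsf4 was higher by 0.37 ± 0.12 (limma adjusted p = 0.0243; 0.02 with the length trend removed), its call was lost in 5 of the 6 fits without 1 library, and 67.9% of its exon bases are also annotated to another gene. Srsf1, the founding SR protein, was not called at -0.34 ± 0.16, nor was Srsf2 at -0.33 ± 0.30, for which 39.4% of exon bases overlap other measured genes.

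The 13 hnRNP genes with their own sequence gave 2 higher and 5 lower. Hnrnpab had 14.07, 13.97 and 13.95 in NDRG1-eGFP libraries, 13.35, 13.19 and 13.22 in PLP-GFP libraries and 13.39, 13.38 and 13.77 in PDGFRa-GFP libraries. Its NDRG1-eGFP libraries lay above all others, with 0.75 ± 0.13 (limma adjusted p = 0.00119) against PLP-GFP cells, although 34.1% of its exon bases overlap another measured gene, Phykpl. Hnrnpl, a regulator that binds CA repeats, had 12.58, 12.17 and 12.60 in NDRG1-eGFP libraries, 13.18, 13.06 and 13.10 in PLP-GFP libraries and 13.21, 13.45 and 13.51 in PDGFRa-GFP libraries. It stood lowest in NDRG1-eGFP cells without overlap, at -0.66 ± 0.14 (limma adjusted p = 0.00391) against PLP-GFP cells and -0.86 with the length trend removed. Windows shared with another locus made up 3.46% of its transcript. Hnrnpd, also known as AUF1 and a binder of AU-rich elements, was lower by a log2 fold change of -1.49 ± 0.34 (limma adjusted p = 0.00511). Its NDRG1-eGFP libraries were spread widely at 11.04, 10.42 and 9.33, and with the length trend removed it was no longer called at -0.88. Hnrnpa2b1, named for its role in Mbp mRNA transport and not by the rule for named genes, had 15.39, 16.01 and 15.69 in NDRG1-eGFP libraries, 15.29, 15.26 and 15.30 in PLP-GFP libraries and 15.52, 15.55 and 15.02 in PDGFRa-GFP libraries. Its NDRG1-eGFP and PLP-GFP values did not overlap, but the difference did not pass the test (0.41 ± 0.18, limma adjusted p = 0.0827).

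The 24 Rbm genes with their own sequence gave 7 higher and 4 lower. Rbm42, a partner of hnRNP K, had 13.49, 13.35 and 13.33 in NDRG1-eGFP libraries, 12.57, 12.35 and 12.49 in PLP-GFP libraries and 12.78, 12.81 and 12.88 in PDGFRa-GFP libraries. The 3 groups did not overlap, and the log2 fold change was 0.92 ± 0.11 (limma adjusted p = 0.00018) against PLP-GFP cells, though 92.5% of its exon bases are also annotated to a gene that was not measured. Rbm15b, which recruits the enzyme complex that methylates adenosines in mRNA, had 9.62, 9.02 and 8.58 in NDRG1-eGFP libraries, 10.59, 10.85 and 10.98 in PLP-GFP libraries and 10.17, 9.86 and 10.01 in PDGFRa-GFP libraries. It was lowest in NDRG1-eGFP cells, at -1.73 ± 0.25 (limma adjusted p = 0.000435) against PLP-GFP cells and -1.13 with the length trend removed. Rbm27 was lower by a log2 fold change of -0.88 ± 0.14 (limma adjusted p = 0.000927; -0.29 with the length trend removed).

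Rbm41 had 9.20, 9.39 and 9.40 in NDRG1-eGFP libraries, 10.31, 10.34 and 10.07 in PLP-GFP libraries and 9.54, 9.19 and 9.23 in PDGFRa-GFP libraries. It was high in PLP-GFP cells alone, with -0.91 ± 0.17 (limma adjusted p = 0.00186) for NDRG1-eGFP against PLP-GFP. Rbm45, an RNA-binding protein of the developing nervous system, had 9.09, 8.70 and 8.38 in NDRG1-eGFP libraries, 7.23, 7.25 and 7.53 in PLP-GFP libraries and 7.03, 6.84 and 8.12 in PDGFRa-GFP libraries. All its NDRG1-eGFP libraries exceeded all others, with 1.38 ± 0.36 (limma adjusted p = 0.00958; 0.89, not called, with the length trend removed) against PLP-GFP cells. Rbm25, which acts through the U1 particle, and Rbm34 are named after their values were seen, because they also held in every fit that removed a length trend or left out a library. Their log2 fold changes were 1.03 ± 0.27 (limma adjusted p = 0.00954) and 0.75 ± 0.17 (limma adjusted p = 0.00545).

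Qk, Mbnl1 and Celf1, regulators of splicing known for tissue-specific programmes, were lower in NDRG1-eGFP cells than in PLP-GFP cells, and the other 5 genes of this class were not called. Qk had 15.89, 15.79 and 15.63 in NDRG1-eGFP libraries, 16.11, 16.68 and 16.40 in PLP-GFP libraries and 16.52, 16.34 and 16.26 in PDGFRa-GFP libraries. NDRG1-eGFP libraries lay below all others, with -0.63 ± 0.16 (limma adjusted p = 0.00779) against PLP-GFP and -0.60 ± 0.16 (limma adjusted p = 0.0222) against PDGFRa-GFP cells. Its transcript of 8547 bases is among the long ones, and with the length trend removed the fold changes were 0.01 and -0.27, neither called. Mbnl1 had 12.81, 13.07 and 13.21 in NDRG1-eGFP libraries, 13.75, 14.01 and 13.89 in PLP-GFP libraries and 13.57, 13.34 and 13.36 in PDGFRa-GFP libraries. The 3 groups did not overlap, at -0.85 ± 0.14 (limma adjusted p = 0.000747) against PLP-GFP cells and -0.33, still called, with the length trend removed. Its paralogue Mbnl2 was not called in any of the 3 comparisons, with log2 fold changes between -0.03 and 0.04. Celf1 was lower by a log2 fold change of -0.42 ± 0.11 (limma adjusted p = 0.00962), and its value was 0.22 with the length trend removed. Celf2 was not called in this comparison at 0.68 ± 0.27. Celf3, Celf4 and Celf6 had values from 0.35 to 7.75 that scattered within every group, with fold changes of -1.12 ± 1.25, 0.47 ± 1.01 and 1.04 ± 1.88.

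Of the 33 calls among genes with their own sequence, 13 of the 19 higher and 11 of the 14 lower were kept whichever of the 6 libraries was left out. Calls that were also kept with the trend on transcript length or on coding length removed numbered 6 on the higher side (Hnrnpab, Prpf31, Rbm25, Rbm34, Rbm42 and Sf3b5) and 5 on the lower side (Hnrnpl, Mbnl1, Prpf19, Rbm15b and Rbm41). Markers of some other cells, and immediate early genes, moved in the same comparison. The 8 fibroblast-like markers summed to between 0.00395% and 0.0134% of the linear values in NDRG1-eGFP libraries, against 0.000290% to 0.000867% in PLP-GFP libraries, with 7 of 8 called higher. The 11 microglial markers summed to between 0.0115% and 0.0174% in NDRG1-eGFP libraries, against 0.00537% to 0.00776% in PLP-GFP libraries, with 10 called higher. The 16 immediate early genes summed to between 0.0856% and 0.459% in NDRG1-eGFP libraries, against 0.0498% to 0.0638% in PLP-GFP libraries, with 12 called higher. Of 10 astrocyte markers 1 was called higher and 1 lower, of 9 neuronal markers 1 lower, and of 2 endothelial markers 0. No marker was at 0, but neither was any other gene, since the lowest value in any library was 0.29. The part of the markers in the values of the splicing factors was not tested.

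**Figure D5:**
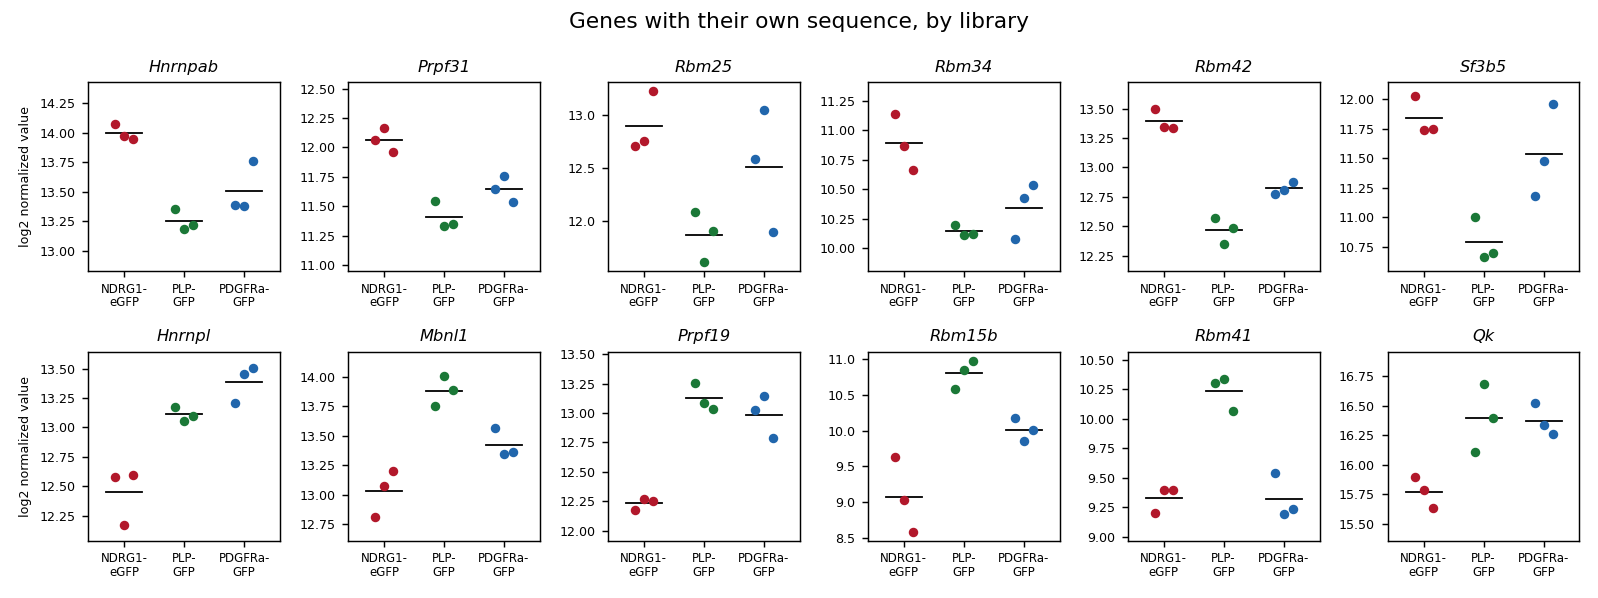
Log2 normalized value (vertical axis, range differing between panels) of 12 genes with their own sequence in each library, with a bar at the group mean (n = 3). The first 6 genes are higher in NDRG1-eGFP than in PLP-GFP libraries and the last 6 lower, with no overlap between these groups in any of the 12. Over all genes, 36.6% lay higher and 29.8% lower without overlap in this comparison.

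Fewer of these genes passed the test between PLP-GFP and PDGFRa-GFP cells. Of the 108, 4 were higher and 7 lower in PLP-GFP cells, beside 8.46% and 8.53% of all genes. Those with their own sequence gave 4 and 4, where 8.97% and 7.7% of all such genes were called, and those kept apart gave 0 and 3, where 3.66% and 16.3% of genes with shared sequence were called. At an unadjusted limma p under 0.05, 2 of the genes kept apart were higher. The median log2 fold change was -0.02 for those with their own sequence, beside 0.05 for all such genes, and -0.14 for those kept apart, beside -0.17. Celf1, Mbnl1, Prpf18 and Rbm41 were higher, and Celf2, Sf3b5, Srsf6, U2af1l4 and, among the genes kept apart, Snrpd2, Srsf3 and U2af1 were lower. The 3 PDGFRa-GFP libraries spread more than the others. Without replicate 3 of that group the counts were 7 higher and 17 lower of the 108. They were 5 and 12 for those with their own sequence and 2 and 5 for those kept apart. The shares of all genes called without that replicate are not given, so these counts cannot be set against the shares above. None of the 11 calls was kept in all 6 fits without 1 library. In the same comparison 7 of 8 fibroblast-like markers, 2 of 11 microglial markers and 6 of 16 immediate early genes were called lower, and their part in these values was not tested.

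Rbm41 differed most clearly in this comparison, with a log2 fold change of 0.91 ± 0.17 (limma adjusted p = 0.0101), kept with the length trend removed at 0.89 and lost in 1 of the 6 fits without a library. Mbnl1 was higher by 0.46 ± 0.14 (limma adjusted p = 0.0424) and Celf1 by 0.42 ± 0.11 (limma adjusted p = 0.0279), and with the length trend removed they were at 0.11 and 0.08, not called. Prpf18, which acts in the second catalytic step, was higher by 0.50 ± 0.14 (limma adjusted p = 0.0364; 0.34 with the length trend removed). On the lower side, Sf3b5 changed by -0.75 ± 0.20 (limma adjusted p = 0.0312) and Srsf6 by -0.55 ± 0.17 (limma adjusted p = 0.0472), and both were still called with the length trend removed. Celf2 had 7.54, 7.79 and 8.46 in PLP-GFP libraries and 8.84, 9.09 and 8.66 in PDGFRa-GFP libraries, a log2 fold change of -0.93 ± 0.27 (limma adjusted p = 0.0403; -0.86, not called, with the length trend removed). Srsf3, which is kept apart with 31.5% shared windows, had 12.92, 13.08 and 13.14 in PLP-GFP libraries and 13.56, 13.70 and 13.73 in PDGFRa-GFP libraries (-0.62 ± 0.12, limma adjusted p = 0.0115). U2af1 was lower, at -0.46 ± 0.12 (limma adjusted p = 0.0333) and was at 0.03 with the length trend removed. Spearman's rho of the fold change with transcript length was 0.48 over the 79 genes with their own sequence and 0.46 over 11272 genes.

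NDRG1-eGFP cells set against PDGFRa-GFP cells gave 13 higher and 20 lower of the 108, beside 10.7% and 10.4% of all genes. The genes with their own sequence gave 12 higher and 6 lower, where 11.6% and 6.87% of all such genes were called. The genes kept apart gave 1 higher and 14 lower, where 2.1% and 43.3% of genes with shared sequence were called. The medians of the 2 sets were 0.12 and -0.66 on the log2 scale, beside 0.18 and -0.51 for all genes of each kind. This comparison shares its libraries with the other 2. The median of all genes stood at 0.14 on the log2 scale, and after recentring on the median ratio 4 of the 108 were higher and 22 lower. Without PDGFRa-GFP replicate 3 there were 23 higher and 29 lower of the 108, 21 and 13 of those with their own sequence and 2 and 16 of those kept apart. For the recentred fit and the fit without that replicate, the shares of all genes called are not given. These counts therefore cannot be set against the shares above. Of the markers, 0 of 8 fibroblast-like, 0 of 16 immediate early and 0 of 9 neuronal genes were called (0, 0 and 1 at an unadjusted limma p under 0.05), 1 of 11 microglial genes (Tyrobp, 1.35) and 1 of 2 endothelial genes (Cldn5, 4.303) were higher, and 2 of 9 progenitor genes (Vcan, -4.04, and Sox11, -4.21) and 1 of 10 astrocyte genes (Slc4a4, -3.99) were lower. Cldn5 had 0.35, 0.33 and 1.80 in PDGFRa-GFP replicates 1, 2 and 3, where the lowest values of any gene were 0.29, 0.29 and 0.32. Its fold change thus rests on values near the floor. In NDRG1-eGFP replicates 1, 2 and 3, Vcan had 5.2, 2.1 and 2.2 and Sox11 had 1.8, 2.5 and 6.2. The fold changes of Vcan and Sox11 thus rest in part on low values that spread widely among libraries. All 11 microglial markers had a log2 fold change above 0, with a median of 0.75. The part of these in the values was not tested.

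The lower calls again included the genes with copies described above, with -1.99 ± 0.12 for U2af1 (limma adjusted p = 1.63e-06), -1.74 ± 0.13 for U2af2 (limma adjusted p = 8.35e-06), -1.82 ± 0.16 for Hnrnpf (limma adjusted p = 2.4e-05) and -2.78 ± 0.19 for Hnrnpa3 (limma adjusted p = 3.97e-06). Snrpg was at -1.52 ± 0.19 (limma adjusted p = 0.000411) and Srsf3 at -1.03 ± 0.12 (limma adjusted p = 0.000257). Rbm3, a cold-induced protein with 13.6% shared windows, had 8.59, 9.14 and 9.17 in NDRG1-eGFP libraries and 10.35, 11.31 and 10.51 in PDGFRa-GFP libraries. That difference passed the test (-1.76 ± 0.52, limma adjusted p = 0.0374), and the call was lost in 5 of the 6 fits without 1 library. Snrpn, an Sm protein gene of neurons at the edge of the 5% limit, was the 1 gene kept apart that was higher. It had 8.18, 8.34 and 8.40 in NDRG1-eGFP libraries, 7.83, 8.02 and 7.64 in PLP-GFP libraries and 6.78, 6.75 and 7.54 in PDGFRa-GFP libraries, and its fold change against PDGFRa-GFP cells was 1.28 ± 0.29 (limma adjusted p = 0.0118).

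Among genes with their own sequence, Hnrnpl (-0.94 ± 0.14, limma adjusted p = 0.00154) and Prpf19 (-0.75 ± 0.13, limma adjusted p = 0.00286) were lower in NDRG1-eGFP cells than in PDGFRa-GFP cells and kept their calls in every fit that removed a length trend or left out a library. Rbm15b at -0.94 ± 0.25 (limma adjusted p = 0.0241), Rbm27 at -0.58 ± 0.14 (limma adjusted p = 0.0198) and Hnrnpd at -1.24 ± 0.34 (limma adjusted p = 0.0281) each lost the call in 3 of 6 fits without 1 library, and with the length trend removed they were at -0.71, -0.36 and -0.99, not called. On the higher side, Rbm42 (0.57 ± 0.11, limma adjusted p = 0.00649) and Srsf4 (0.63 ± 0.12, limma adjusted p = 0.00507) were kept in all 6 such fits, and with the length trend removed they were at 0.27 and 0.37, not called. Hnrnpm, a regulator of exon skipping, was higher by 0.65 ± 0.17 (limma adjusted p = 0.0251) and Rbm45 by 1.39 ± 0.36 (limma adjusted p = 0.0222), and both calls were kept with the trend on transcript length removed. For Hnrnpm, 29.7% of exon bases are also annotated to another gene. Of the 6 fits without 1 library, 4 lost the call of Rbm45 and 1 that of Hnrnpm, and recentring on the median ratio also lost that of Hnrnpm. Snrpa1 (0.55 ± 0.16, limma adjusted p = 0.0315), Prpf6 (0.55 ± 0.15, limma adjusted p = 0.0289), Prpf31 (0.41 ± 0.13, limma adjusted p = 0.0415) and Hnrnpab (0.49 ± 0.13, limma adjusted p = 0.0245) were also higher. With the length trend removed they were at 0.28, 0.40, 0.27 and 0.25, none called, and 4 or 5 of the 6 fits without 1 library lost each of the 4 calls.

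PDGFRa-GFP replicate 3 departed from its group among these genes about as often as over the whole table. Of the 108, 10 were more than 1 log2 unit below both other replicates (9.26%, beside 7.49% of all genes) and 4 were more than 1 above both (3.7%, beside 4.83%). Celf4 and Celf3, both at low values, and Hnrnpdl were farthest below. Also among the 10, Srsf5 had 13.80, 14.43 and 12.69 in PDGFRa-GFP replicates 1, 2 and 3, Srsf2 had 13.56, 13.78 and 12.46, Prpf39 had 11.89, 12.42 and 10.88, and Rbm5 had 13.41, 13.59 and 12.39. Prpf38b, Prpf40b and Rbm6 were the others. Snrpe, Snrpb2, Rbm45 and Rbm20 were the 4 above. Srsf5 and Srsf2 are splicing factors whose mRNAs carry exons that mark them for decay, and their values in NDRG1-eGFP and PLP-GFP libraries lay between 12.32 and 13.64. The 16 immediate early genes summed to 0.419%, 0.429% and 0.0723% of the linear values in PDGFRa-GFP replicates 1, 2 and 3, so they were low in the same library. In NDRG1-eGFP replicates 1, 2 and 3 the sums were 0.371%, 0.0856% and 0.459%. Whether the 2 patterns are linked was not tested. The median SD over the 108 genes was 0.19 in NDRG1-eGFP, 0.12 in PLP-GFP and 0.27 in PDGFRa-GFP libraries, and 9, 6 and 24 genes had an SD over 0.5.

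Other splicing genes, from lists set beside these 108, were compared in NDRG1-eGFP against PLP-GFP. Of 62 other core spliceosome genes measured, 24 were higher and 9 lower (38.7% and 14.5%, beside 26.1% and 22.2% of all genes). With shared genes left aside 24 were higher and 3 lower of 53 (45.3% and 5.66%, beside 27.8% and 19.6%), and once the length trend was removed 8 and 3 (15.1% and 5.66%, beside 15.4% and 12.5%). Of 54 other splicing regulators, 6 were higher and 14 lower (11.1% and 25.9%), and with shared genes left aside 6 and 9 of 44 (13.6% and 20.5%). Of 29 genes of the exon junction complex and mRNA export, 8 were higher and 4 lower (27.6% and 13.8%), shares near or below those of all genes. Of 8 kinases of SR proteins only Dyrk1a was called. Dyrk1a had 9.91, 9.56 and 9.30 in NDRG1-eGFP libraries, 11.53, 11.42 and 11.46 in PLP-GFP libraries and 10.93, 10.56 and 11.13 in PDGFRa-GFP libraries. It was below both other groups without overlap, at -1.88 ± 0.19 (limma adjusted p = 6.45e-05) against PLP-GFP cells.

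Zrsr1, a relative of U2af1 with no window shared with an annotated transcript elsewhere, had 9.81, 10.12 and 9.55 in NDRG1-eGFP libraries, 12.35, 12.23 and 12.14 in PLP-GFP libraries and 9.10, 9.38 and 9.02 in PDGFRa-GFP libraries. It was high in PLP-GFP cells alone, at -2.42 ± 0.18 (limma adjusted p = 6.69e-06) for NDRG1-eGFP against PLP-GFP and 3.07 ± 0.18 (limma adjusted p = 1.40e-05) for PLP-GFP against PDGFRa-GFP, so its order across groups differs from that of U2af1. Khsrp, a splicing and decay factor, was lower in NDRG1-eGFP cells than in PLP-GFP cells (-1.06 ± 0.17, limma adjusted p = 0.000737), and Ncbp2, of the cap-binding complex, was higher (0.91 ± 0.15, limma adjusted p = 0.000869). Thrap3, Tra2b and Nhp2l1 were lower by log2 fold changes of -2.15, -1.17 and -2.53, with 35.5%, 18.3% and 16.5% of their windows shared.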

How the data were processed

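The authors deposited, per the file headers, 1 normalized value per gene symbol and library for 11315 genes. The deposited values were taken as log2 from their range, since the headers name no base. BWA, DESeq2 1.2.5 and mm10 are named in the submitters' processing notes, with no role given. Sorted values were nearly identical between libraries, so the median of a library carries no information on total RNA. All 9 libraries went into 1 limma-trend fit with a term per group (R 4.3.3, limma 3.58.1), after a planned filter that removed no gene. Tests were two-sided, with Benjamini-Hochberg adjustment over the whole table, and calls were made at an adjusted p under 0.05. An exact permutation test of 3 against 3 libraries cannot give p under 0.1 and was not used. The fit was tested on simulated data.

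Shared windows and lengths came from GENCODE M21 on GRCm38, with 1 representative transcript for each of 11272 annotated genes, the 108 included; copies that are not annotated are not seen. The length trend of a library is a loess fit (span 0.3) of its deviations from the gene means on log2 transcript length. Named genes were up to 3 called genes per class and comparison with the smallest adjusted p among those with their own sequence, all U2af, Celf and Mbnl genes and Qk, the genes kept apart, and up to 3 per other list. Genes and lists were chosen with earlier results of these data known. Counting error and depth cannot be given without counts. Values of some genes are not reported here.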

Additional observations from a re-analysis of the deposited data

How the results depend on the processing

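The counts of NDRG1-eGFP against PLP-GFP depended least on the fit, and those that involve PDGFRa-GFP libraries depended on single libraries. In each list below the order is higher then lower for all 108 genes, followed by higher then lower for the 79 with their own sequence where those are given. Shares of all genes called are given above only for the main fit and, in NDRG1-eGFP against PLP-GFP, with the length trend removed. A change in the other counts may thus be shared by the whole table. NDRG1-eGFP against PLP-GFP gave 19 and 26, then 19 and 14. A fit of only the 2 groups compared gave 30 and 32, then 27 and 18. An adjusted p under 0.01 left 12 higher in both sets, and a log2 fold change of at least 1 in size left 3 and 9, then 3 and 2. Removing the length trend left 9 lower of the 79. Leaving out genes with shared sequence left 14 lower of the 108, and doing so before removing the length trend left 9 lower in both sets.

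PLP-GFP against PDGFRa-GFP gave 4 and 7, then 4 and 4. Removing the length trend gave 1 and 4, then 1 and 2. The trend on coding length gave 4 lower of the 108, and leaving out shared genes also gave 4. Both together (shared genes out, length trend removed) gave 1 and 2, then 1 and 2. A fit of 2 groups gave 2 and 2, then 2 and 0. An adjusted p under 0.01, or a log2 fold change of at least 1, left 0 in all 4 counts, where an unadjusted limma p under 0.05 gave 14 and 18, then 12 and 12. Leaving out 1 library gave 0 to 7 and 0 to 17, then 0 to 7 and 0 to 12.

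NDRG1-eGFP against PDGFRa-GFP gave 13 and 20, then 12 and 6. Recentring on the median ratio left 4 higher, then 3. Removing the length trend left 4 higher, then 3, and removing that on coding length 8, then 7. Leaving out shared genes left 6 lower of the 108, and doing so before removing the length trend left 1 and 5, then 1 higher. A fit of 2 groups left 2 higher, then 2 and 3. An adjusted p under 0.01 left 2 and 12, then 2 and 2, and a log2 fold change of at least 1 left 2 and 10, then 1 and 1. Leaving out 1 library gave 3 to 23 higher, then 2 to 21 and 2 to 13. The cause of these shifts was not tested.

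Same-numbered libraries had correlations of deviations from -0.234 to 0.094, and differently numbered ones from -0.134 to 0.225. With 3 libraries per group this check cannot exclude that the numbers pair the samples, and the labels do not say. With the replicate block, PLP-GFP against PDGFRa-GFP gave 1 and 1, then 1 and 0, and NDRG1-eGFP against PDGFRa-GFP gave 5 and 13, then 4 and 3.

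Of 1287 alternatives for 75 called fold changes of named genes, 304 lost the call and 14 changed sign, all 14 after a length trend was removed. For NDRG1-eGFP against PLP-GFP, removing it, without and with shared genes left out, gave 0.22 and 0.21 for Celf1, -0.0096 and -0.084 for Prpf38a, -0.16 and -0.27 for Sf3b6 and -0.070 and -0.18 for Snrpb. Qk was at 0.008 with shared genes in, and Srsf4 at -0.043 and U2af1l4 at -0.071 with them out. For PLP-GFP against PDGFRa-GFP, U2af1l4 was at 0.095 under both, and U2af1 at 0.029. The alternatives on coding length, and on shared genes with length together, were chosen after seeing the data.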
